A study of Mus musculus with 4 samples.

Results

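The gene list of a fetal mouse pancreas library with deleted Setd2 (KO) was compared with that of a library without the deletion (WT), both from E13.5, a day of embryonic life counted from mating. A member is a named gene, which excludes symbols of the form Gm plus a number and symbols that end in Rik, that stands on 1 of the 2 lists and not on the other. There were 1398 such genes among the 18487 named genes on either list, and 28204 genes of any name stood on either list. The lists hold no counts and no levels: a gene is listed or it is not, the rule that put it there is not given in the sources used here, and the depth is unknown. With 1 library for each genotype there is no replicate error and no test between genotypes.

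The WT embryos carried Setd2 f/f and no Cre. The KO embryos carried the same floxed alleles together with Pdxcre, a recombinase transgene. Cre driven by Pdx sequences is known to act in the pancreatic lineage and also in parts of the stomach and duodenum, and cells in which it was not active keep an intact Setd2. Which cells of these libraries had the deletion was not analysed here. Both genotypes were on the C57BL/6 background. Cells labelled for EpCAM, a surface protein of epithelium, had been sorted before sequencing, and the number of embryos in a library is not given. A KO library of E15.5 with the same genotype served as a further list, and the E15.5 WT list, which was complete for 167 genes, was used for that short stretch.

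Setd2 is a methyltransferase that travels with elongating RNA polymerase II and places the last of 3 methyl groups on lysine 36 of histone H3 across the bodies of transcribed genes. That mark is read by DNA methyltransferases, splicing regulators and repair proteins, and it is linked to the silencing of starts within genes. In the fetal pancreas at these ages, EpCAM-positive progenitors branch and give rise to acinar cells, which make digestive enzymes, to duct cells and to endocrine cells. The stomach, the intestine and the liver arise beside the pancreas from the same endoderm.

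Setd2 itself was on all 3 complete lists, in WT as well as in KO. A list entry does not show which part of a gene the reads came from, so this is no check of the deletion. All 13 markers of pancreatic epithelium, among them Epcam, Pdx1, Ptf1a and Neurog3, were on all 3 lists. So were 15 of 18 markers of other cells that the sort could hold, and all 18, among them Col1a1 of mesenchyme, Pecam1 of endothelium, Ptprc of leukocytes, Sox2 of stomach and Alb of liver, were on both E13.5 lists. RNA of other cell types was therefore recorded in both genotypes at E13.5. How its amount, or the number of cells and reads, bears on each difference given here was not tested.

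Of the 18487 named genes, 17089 (92.4%) were on both E13.5 lists. The KO library alone listed 755 (4.08%), called KO only here, and the WT library alone listed 643 (3.48%), called WT only, which makes 7.56% that differed. A KO only gene is called KO at both ages where the E15.5 KO list also holds it, and KO at E13.5 alone where it does not. A WT only gene is called WT alone where the E15.5 KO list lacks it as well. Named protein-coding genes had 447 KO only (2.67%) and 439 WT only (2.62%) of 16771, or 5.28% together. Named genes of other types, such as short RNAs and pseudogenes, had 308 KO only (17.9%) and 204 WT only (11.9%) of 1716. The excess of KO only genes among named genes thus came mostly from the genes of other types, while coding genes split nearly evenly.

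Each named gene was put in 1 of 38 functional kinds by its symbol where a pattern matched. The share that differed ran from 2.06% of 533 zinc finger factors, most of them in both lists, to 67.5% of 120 chemosensory receptors. It was above the 7.56% of all named genes in 25 of the 38 kinds. That 7.56% includes the genes of other types, of which 29.8% differed, against 5.28% of named coding genes. KO only genes were the more numerous in 21 kinds, WT only genes in 10, and 7 kinds were even. The kinds below follow the roles of their genes, from chromatin and transcription to signals, secreted products, tissue proteins and small RNAs.

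**Figure D1:**
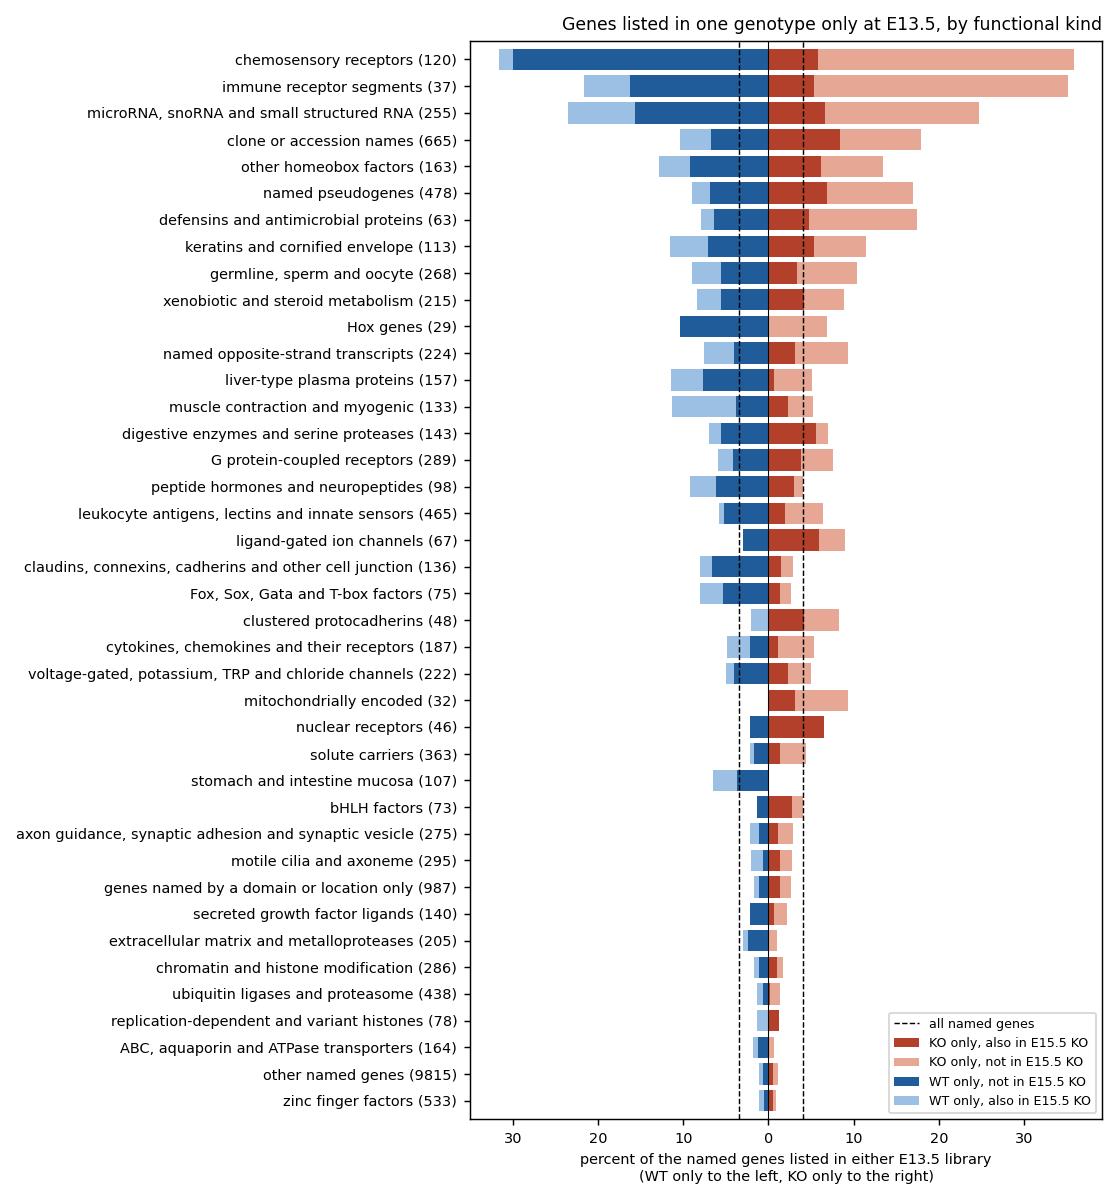
Percent of the named genes of each functional kind (number in brackets) that were KO only (right) or WT only (left) at E13.5, shaded by whether the E15.5 KO list holds them, with dashed lines at the 4.08% and 3.48% of all named genes. Chemosensory receptors, immune receptor segments and small RNAs have the longest bars on both sides, and zinc finger, ubiquitin and chromatin genes have short ones.

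Genes of the chromatin kind differed in 10 of 286 cases (3.50%), 5 in each direction, which is under the 7.56% of all named genes. The kind was set by symbol and takes in methyltransferase-like (Mettl) genes, which need not act on chromatin. All 20 listed Setd, Nsd, Ash1l and Kmt genes, the histone methyltransferase family of Setd2, were on both lists, as were 19 of 19 Kdm demethylase genes. Setd2 is among the 20, so a shared listing does not show that a gene was unchanged. Of all named coding genes 5.28% differed, so groups of this size would hold few differing genes in any case. KO at both ages and absent from WT were L3mbtl1, a reader of methylated histones, Prdm13, a neuronal factor of the Prdm family, and Prmt8, an arginine methyltransferase of brain. KO only and absent at E15.5 were the methyltransferase-like genes Mettl11b and Mettl7a3. WT and in neither KO list were Dnmt3c at 2:153696652-153729907, a DNA methyltransferase of male germ cells in rodents, Ctcfl at 2:173093609-173119525, the germline relative of the insulator protein CTCF, and Mettl21e. Prdm12 and Prdm14, the latter a factor of primordial germ cells, were in the WT list and again in the E15.5 KO list. Coordinates here and below are those of the whole gene on GRCm38, the assembly that mm10 names. Among 78 histone genes the KO list alone held H2al1a, a testis variant, and the WT list alone H1foo, the oocyte linker histone.

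Homeobox genes outside the Hox clusters were among the kinds of regulators that differed most, with 22 KO only and 21 WT only of 163 (26.4%). Of the 22, 10 recurred in the E15.5 KO list. They include Pax3 at 1:78101267-78197134, a factor of neural crest and muscle precursors, Barhl2 and Lhx3 of neurons, Msx3 of the dorsal neural tube, Noto of the notochord, and Dlx4. KO only at E13.5 and absent at E15.5 were Alx1 of craniofacial mesenchyme, the pluripotency factor Nanog and Nkx2-4. The WT list alone held Isx, an intestinal factor that controls vitamin A uptake, Evx1 and Gbx2 of the early axis and hindbrain, Dlx3 of ectoderm, and the neighbours Irx5 and Irx6 at 8:92357625-92680956. Dmbx1, Lhx5 and Mixl1, a factor of early mesendoderm, were in WT and in the E15.5 KO list. The kind includes the X-linked Rhox cluster of reproductive genes, where 11 of 16 listed members differed (6 KO only, 5 WT only). Its copies are alike in sequence, so these calls are uncertain.

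Of 39 listed forkhead genes, 34 were on both lists, none was KO only and 5 were WT only. Foxf2 at 13:31625816-31631403 and Foxl1 at 8:121127940-121130644, both factors of the mesenchyme around the gut tube, were in neither KO list, nor was Foxr1. Foxd2 was again in the E15.5 KO list. In the same kind, T (Brachyury), the factor of early mesoderm and notochord at 17:8434423-8442496, was WT alone, Tbx21, the T-bet factor of type 1 lymphocytes, was KO at both ages, and Tbx19, a pituitary factor, was KO at E13.5 alone. All 20 listed Sox genes were on both lists.

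Basic helix-loop-helix factors differed in 5.48% and zinc finger factors in 2.06%, under the 7.56% of all named genes. Of named coding genes 5.28% differed, near the share of helix-loop-helix factors and above that of zinc finger factors. Hox entries differed in 17.2%, above the share of all named genes and that of coding genes. Among 73 basic helix-loop-helix factors the KO list alone held Neurod4 at 10:130268152-130280240, a factor of neuronal and endocrine differentiation, and Sohlh1, a germ cell factor, both again at E15.5, and Figla of oocytes at E13.5 only. The WT list alone held Myf6, a muscle factor. Among 29 Hox entries Hoxa6 and Hoxd10 were KO only and Hoxb13, Hoxd1 and a second Hoxd4 record were WT only, and the E15.5 KO list held none of the 5. Zinc finger factors had 5 KO only and 6 WT only of 533, with Zic5, a neural crest factor, KO at both ages and Dmrt1, a testis determination factor, WT alone.

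Nuclear receptors had 3 KO only genes and 1 WT only gene of 46. The estrogen receptor genes Esr1 at 10:4611593-5005614 and Esr2 at 12:76120419-76177259 were KO at both ages. Another gene overlaps Esr2 on the same strand, which makes its call less certain. Of other receptors for steroids, Pgr for progesterone, Nr3c1 for glucocorticoids and Nr3c2 for mineralocorticoids were on all 3 lists. Nr1h5, a relative of the bile acid receptor, was WT alone. Among 17 genes of steroid hormone synthesis, a list drawn up after the gene lists were seen, Cyp17a1 and Srd5a2 were KO at both ages, Hsd17b6 was KO at E13.5 alone and Hsd3b3 was WT alone, with 6 in both and 5 in no list. These 4 enzymes act on sex steroids or their precursors.

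Signals came next. Peptide hormones and neuropeptides had 4 KO only and 9 WT only genes of 98. Pdyn, the precursor of dynorphin, Qrfp and Ucn, a relative of corticotropin-releasing hormone, were KO at both ages, and Hcrt, the orexin precursor, was KO at E13.5 alone. WT alone were Crh, the corticotropin-releasing hormone itself, Ucn2 of the same family, Calcb of sensory nerves and gut, Epo, the red cell hormone made by fetal liver, Kiss1 and Npff. Epo and Kiss1 overlap another gene on their strand, which makes these calls less certain. Cga, the common subunit of pituitary glycoprotein hormones, Nppb, a heart natriuretic peptide, and Retnla were in WT and in the E15.5 KO list. The corticotropin-releasing family was thus split, with Ucn on the KO side and Crh and Ucn2 on the WT side. Growth factor ligands and antagonists differed in 6 of 140 genes. Wnt10b was KO at both ages, Wnt10a and Fgf8 were KO at E13.5 alone, and the epidermal growth factor relative Ereg and the bone morphogenetic protein Gdf2 of liver were WT alone.

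G protein-coupled receptors other than those of smell and taste had 22 KO only and 17 WT only genes of 289. Of the KO only genes 11 recurred at E15.5, against 5 of the WT only genes. Glp1r at 17:30901817-30940791, the receptor of beta cells for the gut hormone GLP-1, was KO at both ages, as were Crhr1, the receptor for Crh and Ucn, the muscarinic acetylcholine receptor Chrm4, and Gpr12, Gpr158 and Gpr83. Among 22 hormone receptors of islet cells, a list drawn up after the gene lists were seen and with these genes put in because they differed, 17 were on both E13.5 lists, 3 were KO only (Glp1r, Crhr1 and Chrm4), none was WT only and 2 were on no list. Gipr, Gcgr and Sstr2 were among the 17. WT alone were the adhesion receptors Adgrf2 and Adgrg7, Gpr139, the orexin receptor Hcrtr2, the histamine receptor Hrh1 and Lpar5. The peptide Hcrt and its receptor Hcrtr2 stood on opposite sides.

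Genes of channels and synapses differed in 44 of 564 cases, 25 KO only and 19 WT only. This 7.80% is near the 7.56% of all named genes and above the 5.28% of named coding genes. Ligand-gated channels had 6 KO only and 2 WT only of 67: the nicotinic subunit Chrna2, the glycine receptor subunit Glra3, the NMDA receptor subunit Grin2b and the serotonin channel Htr3a were KO at both ages, and Gabrr1 and Gabrr3 were KO at E13.5 alone. The muscle nicotinic subunit Chrnd and the glycine receptor subunit Glra2 were WT alone. Voltage-gated, potassium, TRP and chloride channels had 11 on each side of 222, with Trpv1, the heat and capsaicin channel of sensory neurons, Kcnk4, Cacng2 and Cnga2 KO at both ages. On the WT side stood Cacna1s, the calcium channel of skeletal muscle, Cacng3, Kcnc4, Kcnj15 and the goblet cell gene Clca1. Gad2, the GABA-synthesizing enzyme of neurons and islets at 2:22622205-22693874, was KO at both ages, as was Gpr158, and Myo3a between them was KO at E13.5 alone. These 3 named coding genes at 2:21367542-22693874 were thus KO only, and they are adjacent among the genes on either E13.5 list. Omg, a myelin protein, and Rtn4rl2, a relative of the Nogo receptor, were also KO at both ages, while Mobp, another myelin protein, was WT alone.

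Solute carriers had 16 KO only and 8 WT only genes of 363 (6.61%). KO at both ages were Slc15a1, the intestinal peptide transporter, Slc6a5, the glycine transporter of neurons, Slc24a4, Slc2a7 and Slc7a15. WT alone were Slco1b2, the organic anion transporter of hepatocytes at 6:141629518-141686646, the renal carriers Slc17a1 and Slc5a12, Slc5a4b, Slc7a12 and Slc9a4, a sodium-proton exchanger of gastric parietal cells. Among 164 ABC, aquaporin and ATPase genes Atp4b at 8:13386205-13396825, a subunit of the gastric acid pump, and Abcb1a, a drug exporter, were WT alone.

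Digestive enzymes and serine proteases had 10 genes on each side of 143. Of the 10 KO only genes 8 were again on the E15.5 KO list, the highest share among kinds with at least 5 KO only genes, against 2 of the 10 WT only genes. Amy2, a pancreatic amylase at 3:113247178-113258837, and Cela3a, a pancreatic elastase at 4:137401554-137409791, were KO at both ages, with the kallikreins Klk1b16 and Klk6, Pla2g4b and Prss33. Reg2, a secreted lectin of acinar cells at 6:78395623-78408106, had the same pattern. WT alone were the mast cell proteases Mcpt1 and Mcpt4, the skin kallikrein Klk7, Clpsl2, Pla2g4f and Prss45. The amylase genes are nearly identical copies, and the identifier of Amy2 is that of Amy2a5 in the annotation, so its absence from the WT list is uncertain.

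A list of 37 secretory proteins of acinar cells, drawn up after the gene lists were seen and holding these genes because they differed, had 30 members listed in WT and 33 in KO at E13.5, and 37 in KO at E15.5. Amy2, Cela3a and Reg2 made up the difference between genotypes, and Try4, Reg3a, Reg3b and Cuzd1 appeared at E15.5 alone. Prss1, Cpa1, Ctrb1 and Pnlip were in all 3. A list for the stomach lining was made in the same way, so the choice of genes fixed its direction too. Of its 27 members, 27 were listed in WT and 18 in KO at E13.5, and 21 in KO at E15.5, so that 9 were WT only and none was KO only. The gastrokines Gkn1 and Gkn2 of the gastric surface mucus cell are neighbours at 6:87345650-87379497 and were WT alone, as were the trefoil peptide Tff1 at 17:31161395-31165277, Atp4b and Slc9a4. Muc5ac, the gastric surface mucin at 7:141788972-141819231, Gif, the intrinsic factor, A4gnt and Anxa10 were again in the E15.5 KO list. Gkn3, Tff2, Muc6 and Atp4a were on all 3 lists. In the kind of stomach and intestine mucosa, which was set by symbol, 100 of 107 genes were on both lists, 7 were WT only and none was KO only. The 6.54% that differed lie under the 7.56% of all named genes that differed in either direction. As a WT only share, 6.54% lies above the 3.48% of all named genes and the 2.62% of named coding genes. This was not tested.

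The start regions of a pair of genes from each side are shown to let the WT side (the gastrokine neighbours) be set beside the KO side (Amy2 and Reg2). Each run is the last 60 bases before the RefSeq start on GRCm38.p6, on the strand of the gene and 5′ to 3′, with the TATA box hexamer TATAAA in capitals where a search of the last 50 bases found it.
Gkn1, chr6:87350916-87350975, minus strand: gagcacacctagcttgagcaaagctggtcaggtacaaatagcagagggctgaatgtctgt
Gkn2, chr6:87373305-87373364, plus strand: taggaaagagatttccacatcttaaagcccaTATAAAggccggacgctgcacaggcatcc
Amy2 (Amy2a5), chr3:113258700-113258759, minus strand: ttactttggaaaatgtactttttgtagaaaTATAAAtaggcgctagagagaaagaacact
Reg2, chr6:78405095-78405154, plus strand: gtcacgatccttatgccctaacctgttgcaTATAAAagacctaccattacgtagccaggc
The hexamer begins 29 bases before the start in Gkn2 and 30 bases before it in Amy2 and Reg2, and these letters are not in that window of Gkn1. It stands in that window in 2.63% of 32851 RefSeq mouse promoters on the strand of the gene and in 3.50% on either strand. These start regions were chosen after the lists were seen, so they do not show how often the hexamer occurs on either side.

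Intestinal and liver genes were followed in lists whose choice of genes sets how many differ and on which side. Their counts cannot be set against the 92.4% of all named genes on both lists. Of 27 genes of the intestinal lining, in a list drawn up after the gene lists were seen and with genes put in because they differed, 16 were on both lists and 6 were WT only. Of these, Isx, Alpi (intestinal alkaline phosphatase), Apoa4 and Clca1 were in neither KO list, and Fabp6, the ileal bile acid binding protein, and Muc3 returned at E15.5. Slc15a1 and Tmprss15, the enteropeptidase that activates trypsinogen, at 16:78953008-79091097, were KO at both ages. Of 41 hepatocyte genes in a list of the same kind, 25 were on both lists, 14 WT only and 1 KO only. The list leaves out KO only genes given below, such as Orm2, Orm3 and Cyp2a5, so its direction shows nothing. Slco1b2, Hao1, Uroc1, Shbg, Saa4, Colec10, Akr1c6, Cyp2a12, Cyp2d9 and the liver microRNA gene Mir122 were in neither KO list. C8a of complement, the clotting factor gene F11, Itih3 and Proz were again listed at E15.5, and Cyp3a11 was the gene on the KO side. Alb, Afp, Ttr and Apoa1 were on all 3 lists.

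**Figure D2:**
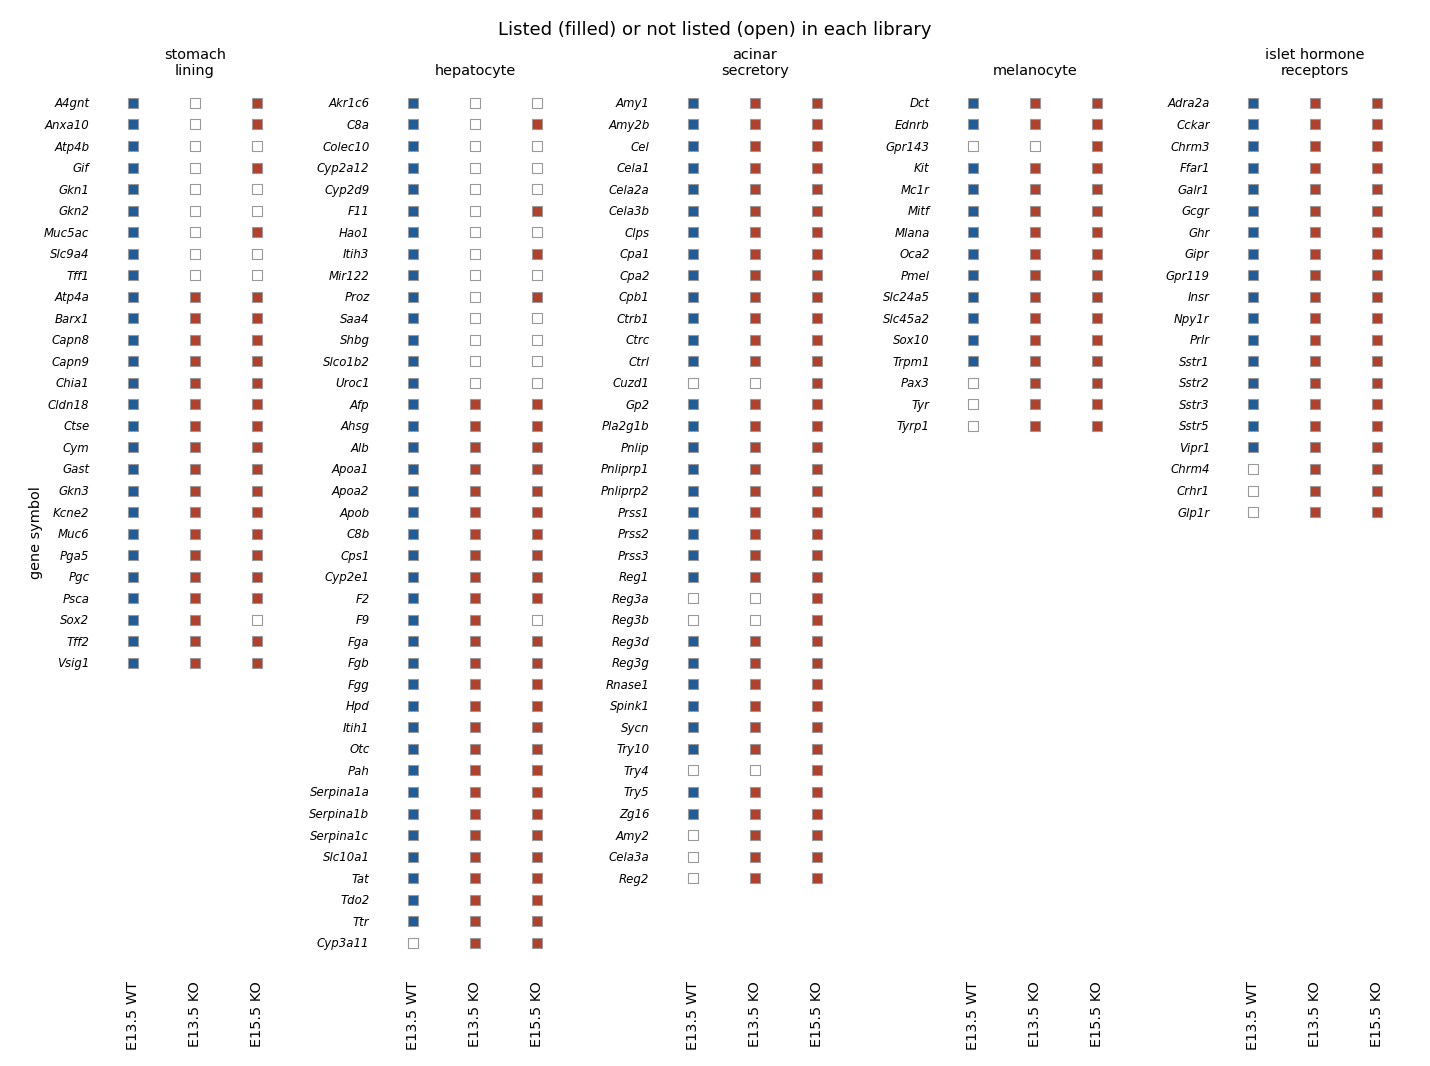
Genes of 5 groups drawn up after the lists were seen, each with a square for WT and for KO at E13.5 and for KO at E15.5, filled where the gene is listed and open where it is not; genes on no list are left out. In each panel WT only genes were placed at the top and KO only genes at the foot, so the position of open squares follows from this order. WT only genes appear in the stomach and hepatocyte panels. KO only genes appear in the hepatocyte, acinar, melanocyte and islet receptor panels. Genes listed at E15.5 alone stand between them.

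Plasma proteins of liver type, a kind set by symbol, had 8 KO only and 18 WT only genes of 157, and 1 of the 8 was again in the E15.5 KO list. Of 8 listed Serpina3 protease inhibitors, 5 were WT only and 1 KO only. Serpina3i, Serpina3j, Serpina3m and Serpina3n form a run at 12:104263122-104414329. In a run, genes follow each other among the named coding genes on either E13.5 list, and unlisted genes may lie between them. Serpina3a, Apoc4 of lipoproteins and Apol7c were also WT alone. The KO list alone held the acute-phase gene Orm2 beside Orm3, at 4:63356162-63365878, and Apol11a and Apol11b. The Serpina3 and Orm copies are close in sequence, which makes the single calls uncertain. Enzymes of drug and steroid metabolism differed in 37 of 215 genes (17.2%), 19 KO only and 18 WT only. Cytochrome P450 genes had 11 KO only and 5 WT only of 52. Cyp2a5, Cyp2f2, Cyp3a11, Cyp4f39 and Cyp17a1 were KO at both ages, and Cyp2a4, Cyp2g1 and Cyp2a5 form a run among listed genes at 7:26307169-26843548. Akr1c6, Ces2a, Cyp2c67 and Dhrs7c were WT alone.

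The mesenchyme of the gut tube was followed through 14 regulators, again a list made after the gene lists were seen. Listed were 14 in WT and 11 in KO at E13.5, and 7 in KO at E15.5. Foxf2, Foxl1 and Fendrr were the 3 missing at E13.5. Fendrr, a long non-coding RNA of mesoderm at 8:121054882-121083110, is close to Foxl1 on the chromosome, and Foxf1, which lies between them, was on both E13.5 lists, as were Barx1 and Nkx3-2. The 4 mesenchymal markers Col1a1, Col3a1, Vim and Pdgfra were on all 3 lists.

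Of 16 melanocyte genes, in a list made after the gene lists were seen and with genes put in because they differed, 12 were on both lists. Tyr at 7:87424771-87493512, Tyrp1 at 4:80834123-80851719 and Pax3 were KO at both ages. Tyr and Tyrp1 are enzymes of melanin synthesis. None was WT only, Gpr143 was listed at E15.5 alone, and Sox10, Mitf, Dct and Pmel were on both E13.5 lists.

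Muscle genes were more often WT only, 15 against 7 of 133 (16.5%), but 10 of the 15 were again in the E15.5 KO list. Sln and Trdn of the calcium store, and Myom2 and Myh15, were in neither KO list, and Csrp3, Cox8b and Asb9 were in WT and E15.5 KO. Myh6, the atrial heavy chain, Xirp1 and Mybphl were KO at both ages, and Musk of the nerve-muscle junction was KO at E13.5 alone. Cell junction genes had 11 WT only and 4 KO only of 136. Claudins, the seal proteins of tight junctions, account for 5 of the 11, with Cldn16, Cldn22 and 3 of the Cldn34 copies in neither KO list. Connexins gave 3, among them Gja10, while Cldn17 and the connexin Gje1 were KO at both ages. Keratins and cornified envelope genes had 13 on each side of 113: within them, keratins proper were 7 KO only and 2 WT only of 41, with Krt40, Krt42, Krt78 and Krt83 KO at both ages and Krt75 and Krt76 WT alone, and Ivl (involucrin) was WT alone. Matrix genes had 2 KO only and 6 WT only of 205. Mmp27 and Mmp28 were KO only, Adamtsl3, Impg1, Mmp21, Thsd7b and the procollagen protease Tll1 were WT alone, and Hapln2 was in WT and E15.5 KO.

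Leukocyte antigens, lectins and innate sensors had 30 KO only and 27 WT only of 465 (12.3%), with 9 of the 30 and 3 of the 27 again in the E15.5 KO list. The natural killer cell receptor Cd226 and the costimulator Cd70 were WT alone, and Fcrl6, Ceacam12, Ceacam20, Ceacam3 and Ms4a10 were KO at both ages. Cytokines, chemokines and their receptors had 10 KO only and 9 WT only of 187 (10.2%), with 2 of the 10 and 5 of the 9 again in the E15.5 KO list. Tnfrsf11b, the decoy receptor of bone remodelling, and Tnfrsf8 were KO at both ages, and Cxcl9, Fasl and Il12b were KO at E13.5 alone. Ccl22 and the interleukin 23 receptor gene Il23r were WT alone, and Ccl11, Cxcl17 and Il22 were in WT and E15.5 KO. Immune receptor segments, which rearranged lymphocytes use, differed in 21 of 37 (56.8%). Both leukocyte markers, Ptprc and Cd68, were on both E13.5 lists.

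Germline genes differed in 52 of 268 cases (19.4%), 28 KO only and 24 WT only. Khdc3 of the oocyte, Majin, a telomere tether of meiosis, and Ropn1 and Spaca5 of sperm were KO at both ages. Akap4 of the sperm tail, Astl of the egg and Dppa1 were KO at E13.5 alone. Dppa4, a pluripotency gene, Cylc1 of the sperm head and Fthl17a were WT alone. Genes of motile cilia differed in 14 of 295 (4.75%), with Mcidas, a regulator of multiciliated cells, and the dynein Dnah10 KO at both ages and the dynein Dnah5 in WT and E15.5 KO. Chemosensory receptors had 43 KO only and 38 WT only of 120, and few recurred at E15.5: 7 of the 43 and 2 of the 38. Of 92 listed olfactory receptor genes, 35 were KO only and 31 WT only.

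Small RNA genes had 63 KO only and 60 WT only members of 255 (48.2%). Among these were 153 microRNA genes, of which 50 were KO only and 45 WT only. MicroRNAs silence messenger RNAs through the seed, bases 2 to 8, so genes with the same seed share many targets. A listed microRNA gene does not show that its mature microRNA was present, since the reads may come from a longer precursor. RefSeq mature sequences on GRCm38 were matched for 87 of the 95 that differed. They are grouped by seed below, with the seed in capitals, to show which genes of a seed family stood on opposite sides and which on 1.
Mir181a-2 (KO at E13.5 alone), chr2:38852741-38852763: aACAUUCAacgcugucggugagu
Mir181c (WT alone), chr8:84178924-84178945: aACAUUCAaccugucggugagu
Mir219a-1 (KO at E13.5 alone), chr17:34025052-34025072: uGAUUGUCcaaacgcaauucu
Mir219a-2 (WT alone), chr2:29845689-29845709: uGAUUGUCcaaacgcaauucu
Mirlet7a-1 (KO at both ages): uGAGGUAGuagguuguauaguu
Mirlet7e (WT and E15.5 KO): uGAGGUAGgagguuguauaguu
Mirlet7f-1 (both genotypes): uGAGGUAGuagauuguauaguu
Mir322 (KO at both ages): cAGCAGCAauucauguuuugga
Mir15a (KO at E13.5 alone): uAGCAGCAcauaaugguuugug
Mir497 (KO at E13.5 alone): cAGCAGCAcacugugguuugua
Mir15b (both genotypes): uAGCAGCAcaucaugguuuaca
Mir130a (KO at both ages): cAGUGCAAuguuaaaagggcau
Mir130b (both genotypes): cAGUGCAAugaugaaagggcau
Mir99a (WT alone): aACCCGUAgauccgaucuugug
Mir99b (WT alone): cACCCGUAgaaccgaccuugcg
Mir30e (KO at E13.5 alone): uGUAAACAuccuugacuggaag
Mir384 (KO at E13.5 alone): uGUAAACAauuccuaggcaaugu
The families of miR-181, miR-219 and let-7 were the 3 seed groups split between genotypes. The miR-219 pair has the same mature sequence from a gene on chromosome 17, listed in KO, and a gene on chromosome 2, listed in WT. The mature product is thus the same, and the difference lies in which gene was listed. Mir219c, on the opposite strand at the same place on chromosome 17 as Mir219a-1, was WT alone. In the groups of miR-15 and miR-130 a member was on both lists and the differing members stood on the KO side. The groups of miR-7, miR-26 and miR-692, not printed above, went the other way. Each had a member on both lists, and the differing genes Mir7-1, Mir26a-1 and Mir692-2 were WT alone. Mir99a and Mir99b were both on the WT side and Mir30e and Mir384 both on the KO side, with no member of these groups on both lists, and 70 of the differing genes had no seed partner. The genes printed here beyond those the naming rule gives were chosen after the lists were seen.

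The imprinted microRNA cluster at 12:109571990-109743368, whose hairpins are cut from long maternal transcripts, had 5 of 19 listed genes on both lists, 8 KO only and 6 WT only. Mir667, Mir300 and Mir453 were KO at both ages, and Mir136 was in WT and E15.5 KO. The 2 genotypes thus listed different microRNA genes of the same cluster. A listing here does not tell a hairpin from the long transcript that it is cut from. Of the 95 differing microRNA genes, 47 lie within a protein-coding gene on its strand, and 62 overlap some gene on their strand. A read there cannot be told apart from the precursor of the host gene. Small nucleolar RNA genes had 3 KO only and 9 WT only of 43. Named pseudogenes had 81 KO only and 43 WT only of 478 (25.9%), among them 25 and 10 of 213 ribosomal protein pseudogenes, whose near-identity to their parent genes makes the calls uncertain.

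The KO list of E15.5 shows which differences recurred. Of the 755 KO only genes 309 (40.9%) were on the E15.5 KO list and 446 were not, and of the 643 WT only genes 208 (32.3%) were on it and 435 were in neither KO list. Genes on both E13.5 lists were also there in 16463 of 17089 cases (96.3%). Protein-coding genes gave 189 of 447 (42.3%) and 143 of 439 (32.6%). The share was the higher for KO only genes in 16 of 26 classes with at least 5 genes on each side, the classes of clone names and of other named genes included. Digestive enzymes, with 8 of 10 against 2 of 10, and receptors coupled to G proteins, with 11 of 22 against 5 of 17, leaned one way. Muscle genes leaned the other, with 3 of 7 against 10 of 15, as did plasma proteins, with 1 of 8 against 6 of 18. The list of E15.5 comes from another age than the lists compared, so this share does not separate genotype from age or from the size of the lists.

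**Figure D3:**
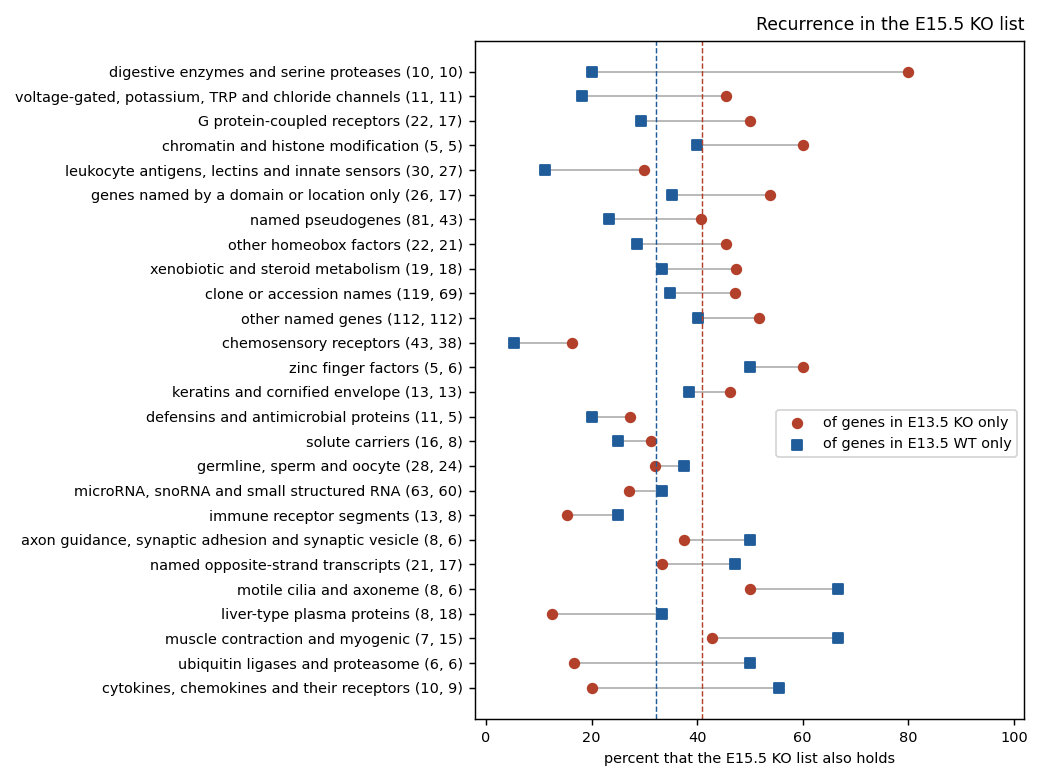
Percent of the differing genes of each class with at least 5 KO only and 5 WT only genes (numbers in brackets) that the E15.5 KO list also holds, circles for KO only and squares for WT only, with dashed lines for all named genes at 40.9% and 32.3%. Digestive enzymes have the widest gap toward KO only and muscle genes lie far to the right for WT only.

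Up to the last complete entry of the cut WT list of E15.5, 174 named genes were on an E13.5 list and 2 of them differed, both KO only. Fasl, the death ligand of cytotoxic lymphocytes, was in neither E15.5 list. Clec2g, a C-type lectin, was in the E15.5 WT list and not in the E15.5 KO list, the reverse of E13.5.

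The differing coding genes were shorter than the rest on both sides alike. The median summed exon length was 4.25 kb for genes on both lists, 2.46 kb for KO only and 2.56 kb for WT only genes, and the median numbers of exons were 9, 6 and 5. The share that differed was lower in longer genes in both directions: of 529 genes with 0.5 to 1 kb of exon sequence 8.32% were KO only and 8.51% WT only, and of 2703 genes above 8 kb 0.481% and 0.740%. The 76 genes under 0.5 kb gave 7.89% and 11.8%. The median GC content of the longest transcript was 50.0% for genes on both lists and 48.5% for either side. It was 50.4% for the 189 genes that were KO at both ages and 47.4% for the 296 that were WT alone. KO only and WT only genes taken whole were thus close to each other in these medians, while these subsets were further apart in GC content. The difference between the subsets was not tested.

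**Figure D4:**
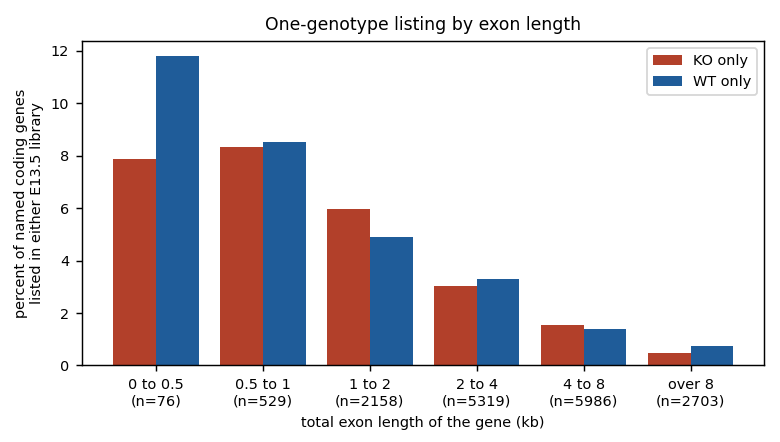
Bars give the percent of named protein-coding genes that were KO only or WT only at E13.5, in bins of summed exon length in kb with the number of genes in each. From 0.5 to 1 kb upward the bars of both sides shrink with each bin, from 8.32% to 0.481% for KO only and from 8.51% to 0.740% for WT only.

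By chromosome, the share of coding genes that differed ran from 2.78% on chromosome 10 to 8.21% on the X chromosome, leaving out the Y chromosome, where 1 of 5 listed genes differed. Chromosome 4 had 26 KO only and 13 WT only genes, and chromosome 3 had 14 and 26. Neighbours were taken among the named coding genes on either E13.5 list, so unlisted genes may lie between them. Among 16749 such pairs, both were KO only in 37, both WT only in 38, and 1 was of each kind in 71. The gastrokine pair, the Serpina3 run and the run from Gpr158 to Gad2 are among them. A few calls rest on records that overlap another gene on the same strand. They are the second records of Itgam and Spata22, and Hgs, Pde2a, Raver1 and Rbm42, all KO only, and they are uncertain.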

How the data were processed

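Single-cell libraries of EpCAM-sorted fetal pancreas had been made, 1 per age and genotype. Per the submitters' processing notes, Seurat and mm10 were used. Version, aligner, annotation and listing rule: not given in the sources used. The deposited files used here have 2 columns, identifier and symbol, and no values, so no count, level or score per gene was available and each measure is listed or not listed.

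Genes were matched by identifier between the E13.5 WT (25463 genes), E13.5 KO (26341) and E15.5 KO (25474) lists. Types, coordinates and lengths came from GENCODE M21 on GRCm38: 29604 of 29652 identifiers matched. Named genes were put in 38 kinds by ordered symbol patterns; 6 patterns were corrected after the lists were seen. A further 12 groups were drawn up after the lists were seen, with genes added because they differed, so their direction supports nothing. The members and lists were chosen with earlier results of these data known.

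In each kind, up to 6 genes were named of the patterns KO at both ages and WT alone and up to 3 of the others, alphabetically, coding genes first; kinds with 5 or fewer were named in full, and genes of uncertain role left out. Some results are not reported here. Setd2 came first. Other genes (the 12 groups, their shared members, runs of neighbours, printed sequences, uncertain records and the genes of the E15.5 WT stretch) were chosen after the lists were seen. A comparison of promoter sequence between sides was void, since only 79.2% of the coding genes on both lists, 79.9% of KO only and 70.8% of WT only genes matched a RefSeq promoter. The counting was tested on simulated data. Python 3.11.15 and matplotlib 3.10.9 were used.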

Additional observations from a re-analysis of the deposited data

Results flagged for a closer look

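The lectin gene Clec2g was taken up because its genotypes stood opposite at the 2 ages. On a scale where listed is 1 and not listed is 0, KO minus WT was 1 at E13.5 and -1 at E15.5. Each value comes from 1 library a side, and the difference between ages was not tested.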

How the results depend on the processing

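The E13.5 comparison was recomputed in 6 ways. With protein-coding genes only, 447 genes were KO only in place of 755, and 94.7% in place of 92.4% were on both lists. That share was 93.2% without clone and accession names and 93.4% without families of near-identical copies. Of 222 directions of kinds checked, 2 reversed: KO only minus WT only was -1 for opposite-strand transcripts with protein-coding genes only, and -1 for defensins without families of near-identical copies. A further 28 differences between KO only and WT only counts changed by more than 1.5 times or moved to or from 0. Without same-strand overlaps, KO only minus WT only went from -5 to -2 for peptide hormones, from 5 to 11 for chemosensory receptors and from 4 to 1 for germline genes. Without copy families it went from -10 to -6 for plasma proteins and from -7 to -4 for cell junction genes. These alternatives remove genes by construction. The excess of recurrence of KO only over WT only genes was 8.58 percentage points and lay between 7.72 and 10.4 over the 6 alternatives. The count of differing genes of the chromatin kind was 10 in each of them. No paired analysis was possible because a genotype has 1 library at E13.5, and for the same reason no library could be left out. Depth is unknown, so a gene with few reads and one with none cannot be told apart.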

Other observations

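Vision genes were listed on both sides. Of 40 genes of photoreceptors and retinal pigment epithelium, in a list drawn up after the gene lists were seen, 23 were on both E13.5 lists, 5 were KO only, 5 WT only and 6 on no list. Gucy2f and Pde6b of the phototransduction cascade, the eye field factor Rax, and the opsin relatives Rgr and Rrh were KO at both ages. Cabp4, Impg1 and Rp1 were WT alone, and Cnga1 was in WT and E15.5 KO. Genes that make thyroid hormone, 12 in a list of the same kind, were 5 on both lists, 1 KO only and 3 WT only. The oxidase Duox2 was KO at both ages, its relative Duox1 was WT alone, and the maturation factor Duoxa2 was in WT and E15.5 KO.

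Cytotoxic lymphocyte genes, 24 in a list of the same kind, were 9 on both lists, 4 KO only and 7 WT only, with 4 on no list. The pore protein Prf1 at 10:61297833-61304680, the granzyme Gzmk, the receptors Klrk1, Klre1 and Cd226, and Tigit were WT alone, and Crtam was in WT and E15.5 KO. Tbx21 was KO at both ages, and Fasl, Klrb1 and Klrg1 were KO at E13.5 alone. Small secreted protein families, taken up after the lists were seen, also stood on 1 side: of 8 listed lipocalin genes (Lcn) 4 were KO only and none WT only, and of 9 cystatin genes (Cst, Csta) 4 were WT only and none KO only. Of 4 secretoglobin genes (Scgb) 3 were WT only. Beta-defensin genes (Defb) had 6 KO only and 1 WT only of 11, and these copies are alike in sequence, so the calls are uncertain.

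Xist of the inactive X chromosome and the Y-linked genes Ddx3y, Uty, Eif2s3y and Kdm5d were on all 3 complete lists, and the Y-linked Zfy1 was WT only.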
